A study of Homo sapiens with 11 samples.

Results

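The subject is the transcription factor gene MITF and 9 genes of melanin production that it is known to drive, in ARPE-19 cells, a human cell line derived from the pigmented epithelium behind the retina. The 10 genes, MITF, TYR, TYRP1, DCT, PMEL, MLANA, TRPM1, SLC45A2, OCA2 and GPR143, were taken by symbol from the 60605 rows of the deposited table, where each had 1 row. Polyadenylated RNA was sequenced from stable ARPE-19 lines that had expressed an open reading frame for 4 days. The frame was GFP (the control, 3 libraries), Oct4, Sox2 or Klf4 (2 libraries each), or Oct4, Sox2 and Klf4 together (called OSK, 2 libraries). All the lines share the ARPE-19 background. The library names of the Oct4, Sox2, Klf4 and OSK lines carry the tag mC, and those of the GFP line do not. What mC stands for is not said there, and it cannot be told apart from the factors in comparisons with GFP. The labels do not say whether a line is a clone or a pool, which species the reading frames came from, or whether replicates were separate cultures. P-values therefore measure only the spread between these libraries, which may be technical. The question asked of the genes was whether MITF falls together with its targets when the reprogramming factors are expressed.

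Pigment cells make melanin inside melanosomes, organelles related to lysosomes. MITF, a basic helix-loop-helix leucine zipper protein, is the central activator of this programme in melanocytes and in the retinal pigment epithelium, where it acts together with OTX2, and it binds E-box sequences in the promoters of its targets. Tyrosinase (TYR) carries out the first step of melanin synthesis, TYRP1 and DCT act after it, PMEL forms the fibrils on which melanin is laid down, and SLC45A2 and OCA2 are melanosome membrane proteins that support a pH in which tyrosinase works.

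Depth ran from 15053300 to 19791775 reads per library. A low background over many otherwise silent genes was seen in GFP replicate 1 and OSK replicate 1. At least 1 read was found at 67.7% of 405 olfactory receptor genes in GFP replicate 1 and at 23.0% in OSK replicate 1, against 4.94% to 8.15% in the other 9 libraries. The delivered factors were highest in the lines labelled for them, and in OSK the POU5F1 (Oct4) level was 28.7%, the SOX2 level 60.7% and the KLF4 level 105% of that in the single line. Of 12 retinal pigment epithelium markers, KRT8 and KRT18 were high in all 11 libraries, whereas RPE65, the visual cycle isomerase that defines the mature cell, never exceeded 4 reads. From a list of 9 melanocyte markers, PAX3 and S100B were at 0 in 10 and 9 of the 11 libraries. PAX3 reached 17 reads in GFP replicate 1, and SOX10 never exceeded 26. Some other markers on that list were higher, and 6 of the 9 had enough reads to test. All 9 summed to 227.6 to 349.6 normalised counts in GFP, 123.4 to 136.1 in Sox2 and 394.2 to 562.1 in Klf4. In bulk RNA, fewer cells that express a gene and less of its RNA per cell cannot be told apart.

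The promoters are shown because the E-box is the feature that MITF targets are known for. RefSeq promoters (GRCh38.p14) were given for 8 of the 10 genes, 12 promoters in all, and the 250 bases before each start were searched on both strands. The letters CATGTG (or CACATG on the other strand) were found in 7 of the 12 promoters and 6 of the 8 genes, against 9.417% of 35116 promoters. The longer TCATGTG, which contains CATGTG and is the core of the M-box, was found in 4 of the 12 promoters, against 2.523% of all promoters. These belong to 4 of the 8 genes, TYR, TYRP1, DCT and GPR143. The palindrome CACGTG was in none of the 12 and in 6.345% of promoters. One stretch is shown for each gene with a match, with the match in capitals, read 5′ to 3′ on the strand of the gene:
TYR: agaaaagtcagTCATGTGcttttcagagg
TYRP1: ttggaagggaaTCATGTGctgatcaagtc
DCT: tgcactttgggTCATGTGctaatgatgag
GPR143: gaggcccagggCACATGAtgccgccccca
TRPM1: gcccaagtgctCACATGctcctcatggg
OCA2: gtgggcggggcCATGTGggcagctttgt
The TYR match lay 105 to 99 bases before the start (searched stretch chr11:89177625-89177874, plus strand), that of TYRP1 145 to 139 bases (chr9:12693135-12693384, plus), that of DCT 135 to 129 bases (chr13:94479683-94479932, minus) and that of GPR143 61 to 55 bases (chrX:9765848-9766097, minus). All 250 bases of the TYR stretch and 76 of those of TYRP1 lay in GENCODE exons, and none of those of DCT. The shorter matches of TRPM1 (chr15:31101726-31101975, minus) and OCA2 (chr15:28099316-28099565, minus) began 56 and 153 bases before the start. The 3 MITF promoters and the MLANA promoter held none of these letters. A match is a description of the sequence, and binding was not measured here.

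Pigmentation genes fell in each factor line, with the smallest median change in Klf4 and the largest in Sox2. Of the 8 genes with enough reads to test (DCT and OCA2 had too few), 7 fell in the Oct4 line, 7 fell and MLANA rose in the Sox2 line, 4 fell in the Klf4 line and 6 fell in OSK (limma on log2(value + 1), adjusted p under 0.05 over 18828 genes). Across all genes tested, 17.2% were lower in Oct4, 19.9% in Sox2, 16.0% in Klf4 and 20.0% in OSK. The shares of genes that were higher were 20.1% in Oct4, 21.7% in Sox2, 17.6% in Klf4 and 19.7% in OSK, and 37.3%, 41.6%, 33.5% and 39.7% changed in either direction. The median log2 change over the 8 genes was -2.36 in Oct4, -3.93 in Sox2, -0.58 in Klf4 and -1.32 in OSK. Over all tested genes it lay between -0.01 and -0.02 in each line. The same 4 counts, 7, 7, 4 and 6, gave the genes whose libraries all lay below every GFP library, as did 27.4%, 29.3%, 26.8% and 29.2% of all genes tested. The 4 comparisons share the GFP libraries. All levels are in normalised counts, the read count divided by 1 factor per library, and fold changes are on the log2(value + 1) scale, so the changes of weakly expressed genes are understated.

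**Figure D1:**
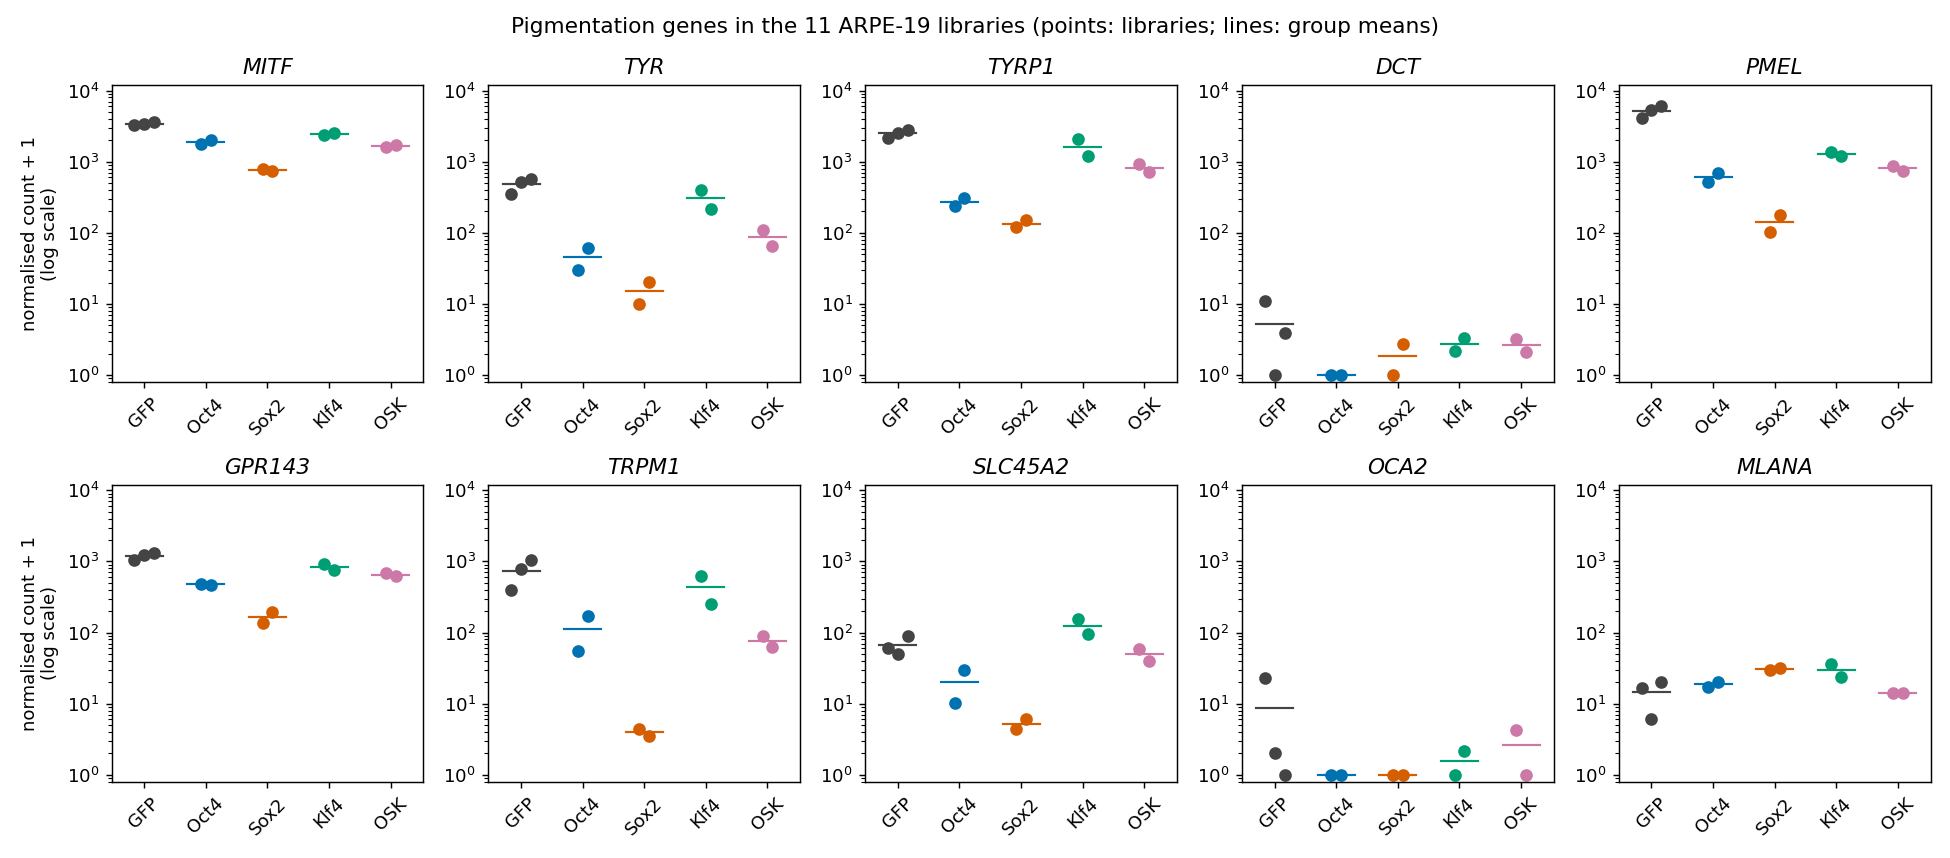
Normalised count + 1 (log axis) of the 10 genes in each of the 11 libraries, grouped by line; points are libraries and lines are group means. MITF, TYR, TYRP1, PMEL and GPR143 were lowest in Sox2, and DCT, OCA2 and MLANA stayed at low values throughout.

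MITF itself (chr3:69739435-69968337, plus strand, GRCh38) was lower in all 8 factor libraries than in any GFP library. It had 3263, 3354 and 3602.5 normalised counts in GFP, 1786 and 1999.5 in Oct4, 789.9 and 747.5 in Sox2, 2343 and 2515 in Klf4, and 1590.3 and 1732 in OSK. The replicates lay close together, and the ranges of the 5 groups did not overlap. Mean MITF was 55.6% of GFP in Oct4, 22.6% in Sox2, 71.3% in Klf4 and 48.8% in OSK. On the log2 scale MITF changed by -0.85 in Oct4 (SE 0.07, limma adjusted p = 2.18e-07) and -2.15 in Sox2 (SE 0.07, limma adjusted p = 4.72e-12). It was -0.49 in Klf4 (SE 0.07, limma adjusted p = 9.76e-05) and -1.04 in OSK (SE 0.07, limma adjusted p = 2.02e-08). In order, MITF stood at GFP, Klf4, Oct4, OSK and Sox2, and the neighbours Oct4 and OSK were not separated by the test (log2 difference -0.19, SE 0.08, limma adjusted p = 0.0834). That call depended on 1 library, since without Oct4 replicate 1 the difference was -0.27 (limma adjusted p = 0.0462). The row sums all MITF transcripts, so the promoter forms of melanocytes and of the retinal pigment epithelium are not told apart.

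TYR (chr11:89177452-89295759, plus), the rate-limiting enzyme of melanin synthesis, fell more than 10-fold in Oct4 and more than 33-fold in Sox2 by group means. Its levels were 349.6, 512.9 and 578.4 in GFP, 29.03 and 60.7 in Oct4, 8.98 and 19.7 in Sox2, 402.5 and 217.1 in Klf4, and 108.4 and 64.9 in OSK. The Oct4, Sox2 and OSK libraries all lay below GFP, and Klf4 replicate 1 lay inside the GFP range while Klf4 replicate 2 lay below it. As a share of the GFP mean, TYR was 9.34% in Oct4, 2.98% in Sox2, 64.5% in Klf4 and 18.0% in OSK. TYR changed by -3.45 in Oct4 on the log2 scale (SE 0.36, limma adjusted p = 1.63e-06), -5.03 in Sox2 (SE 0.36, limma adjusted p = 1.73e-08) and -2.47 in OSK (SE 0.36, limma adjusted p = 4.83e-05). In Klf4 it was -0.67 and did not pass (SE 0.36, limma adjusted p = 0.182). Sox2 had 8 and 23 reads of TYR, and the Sox2 change was -4.34 with a pseudocount of 10. TYR has a near-identical partial copy, TYRL, which was listed at 0 in all libraries, so TYR values are uncertain where the counting could drop shared reads.

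TYRP1 (chr9:12685439-12710290, plus), a melanosomal protein related to tyrosinase that stabilises it, followed the same order of lines as TYR. It had 2168, 2491 and 2813 normalised counts in GFP, 235.7 and 312.5 in Oct4, 118.9 and 149.0 in Sox2, 2057 and 1204 in Klf4, and 922.5 and 709.4 in OSK. All factor libraries lay below GFP, and no 2 groups overlapped. The means were 11% of GFP in Oct4, 5.38% in Sox2, 65.5% in Klf4 and 32.8% in OSK. For TYRP1 the log2 change was -3.19 in Oct4 (SE 0.19, limma adjusted p = 2.7e-09), -4.21 in Sox2 (SE 0.19, limma adjusted p = 7.67e-11) and -1.61 in OSK (SE 0.19, limma adjusted p = 4.86e-06). In Klf4 it was -0.65 (SE 0.19, limma adjusted p = 0.0144). That Klf4 call was lost with DESeq2 (adjusted p = 0.0833), without the filter on low values (limma adjusted p = 0.0553), without GFP replicate 3 (-0.56, limma adjusted p = 0.0602) and without Klf4 replicate 2 (-0.27, limma adjusted p = 0.339).

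DCT (chr13:94436808-94479682, minus), the dopachrome tautomerase that acts between tyrosinase and TYRP1, was hardly detected in any line. It had 10 reads in GFP replicate 1, the library with the broad low background, 3 in GFP replicate 3, none in both Oct4 libraries, and at most 2 in each of the others. No change of DCT was detectable at this depth. Of its promoters, that at chr13:94479683-94479932 carries the same TCATGTG letters as those of TYR and TYRP1, and the other held no match.

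PMEL (chr12:55954105-55973317, minus), the amyloid protein of the melanosome matrix, had the highest level per length of the 10 genes in GFP and was the member that Klf4 lowered most. It had 4094, 5281 and 6067 normalised counts in GFP, 523.7 and 700.5 in Oct4, 101.0 and 179.8 in Sox2, 1356 and 1184 in Klf4, and 868.3 and 749.0 in OSK. The 5 groups did not overlap. Mean PMEL was 11.9% of GFP in Oct4, 2.73% in Sox2, 24.7% in Klf4 and 15.7% in OSK. PMEL changed on the log2 scale by -3.07 in Oct4 (SE 0.20, limma adjusted p = 6.11e-09), -5.23 in Sox2 (SE 0.20, limma adjusted p = 1.1e-11), -2.0 in Klf4 (SE 0.20, limma adjusted p = 1.02e-06) and -2.65 in OSK (SE 0.20, limma adjusted p = 2.79e-08). All 4 calls held under every alternative run. PMEL shares 89 exon bases with CDK2 on the opposite strand, and the use of strand in counting is not given in the sources used here. CDK2 had 336.7 to 591.9 normalised counts over the 11 libraries. Per kilobase of annotated exon, the GFP means were 1320 for PMEL, 665.7 for TYRP1, 483.9 for GPR143, 474.4 for MITF, 159.2 for TYR, 99.6 for TRPM1 and 20.2 for SLC45A2, in normalised counts per kilobase.

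MLANA (chr9:5890802-5910606, plus), a melanosome protein known as the melanocyte antigen MART-1, was not called lower in any line. Its levels were 15.9, 5.06 and 19.4 in GFP, 16.3 and 19.5 in Oct4, 29.2 and 30.8 in Sox2, 34.7 and 22.9 in Klf4, and 13.01 and 13.2 in OSK. Sox2 and Klf4 libraries lay above every GFP library, and the other lines overlapped GFP. Between 5 and 36 reads stood behind each value. MLANA changed by a log2 value of 1.28 in Sox2 (SE 0.48, limma adjusted p = 0.0444), 1.19 in Klf4 (SE 0.48, limma adjusted p = 0.0708), 0.56 in Oct4 (SE 0.48, limma adjusted p = 0.403) and 0.14 in OSK (SE 0.48, limma adjusted p = 0.854). The Sox2 call was lost with edgeR (adjusted p = 0.0653), with DESeq2 (adjusted p = 0.118), and in limma without GFP replicate 2 (0.74, limma adjusted p = 0.168) and without Sox2 replicate 1 or 2 (limma adjusted p = 0.144 and 0.167). The Klf4 change passed without GFP replicate 1 (1.39, limma adjusted p = 0.0366) and without GFP replicate 3 (1.53, limma adjusted p = 0.034).

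GPR143 (chrX:9725346-9786297, minus), the melanosomal G protein-coupled receptor whose loss causes ocular albinism, fell in all 4 lines, with smaller log2 changes than TYR and TYRP1 in Oct4 and Sox2, a difference that was not tested. It had 1038, 1237 and 1334 normalised counts in GFP, 487.7 and 462.4 in Oct4, 136.9 and 191.8 in Sox2, 919.5 and 769.0 in Klf4, and 677.5 and 629.1 in OSK. Every factor library lay below GFP, and the groups did not overlap. The means were 39.5%, 13.7%, 70.2% and 54.3% of GFP in Oct4, Sox2, Klf4 and OSK. Its log2 change was -1.33 in Oct4 (SE 0.13, limma adjusted p = 9.27e-07), -2.88 in Sox2 (SE 0.13, limma adjusted p = 1.03e-10), -0.51 in Klf4 (SE 0.13, limma adjusted p = 0.00765) and -0.87 in OSK (SE 0.13, limma adjusted p = 6.75e-05). Without Klf4 replicate 2 the Klf4 change was -0.38 and no longer passed (limma adjusted p = 0.115).

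TRPM1 (chr15:31001061-31161273, minus), a cation channel of melanocytes and retinal bipolar cells whose intron holds miR-211, had the fewest reads in Sox2 of the 8 tested genes. It had 402.2, 774.9 and 1051 normalised counts in GFP, 53.4 and 170.5 in Oct4, 3.37 and 2.57 in Sox2, 620.0 and 254.8 in Klf4, and 87.8 and 61.6 in OSK. GFP replicate 1 was the lowest of its group, and Klf4 replicate 1 lay inside the GFP range. Each Sox2 library had 3 reads, so the ratio of GFP to Sox2 was 255.6 with a 95% exact counting interval from 117.2 to 697.1, which covers counting error only. Mean TRPM1 was 15.1% of GFP in Oct4, 58.9% in Klf4 and 10.1% in OSK. The Sox2 change passed (limma adjusted p = 2.2e-09), as did the log2 changes of -2.84 in Oct4 (SE 0.45, limma adjusted p = 0.000119) and -3.21 in OSK (SE 0.45, limma adjusted p = 3.03e-05). Leaving out Oct4 replicate 1 gave -2.01 in Oct4 and leaving out replicate 2 gave -3.67, and the OSK value was -3.85 without GFP replicate 1 and OSK replicate 1. In Klf4 it was -0.79 (SE 0.45, limma adjusted p = 0.201), and it passed without GFP replicate 1 (-1.18, limma adjusted p = 0.0364). TRPM1 shares 334 exon bases with AC009562.1 on the opposite strand, which had at most 55.5 normalised counts.

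SLC45A2 (chr5:33944616-33984730, minus), a melanosome transporter, was the one target with higher means in Klf4 than in GFP apart from MLANA. Its levels were 59.6, 48.6 and 89.4 in GFP, 9.29 and 28.6 in Oct4, 3.37 and 5.14 in Sox2, 153.8 and 94.8 in Klf4, and 58.5 and 38.5 in OSK. Both Klf4 libraries lay above GFP, Oct4 and Sox2 lay below it, and OSK replicate 1 lay inside the GFP range. The log2 change was 0.91 in Klf4 (SE 0.43, limma adjusted p = 0.119) and -0.42 in OSK (SE 0.43, limma adjusted p = 0.487), neither of which passed. It was -3.64 in Sox2 (SE 0.43, limma adjusted p = 3.96e-06) from 3 and 6 reads, and -2.38 there with a pseudocount of 10. In Oct4 it was -1.89 (SE 0.43, limma adjusted p = 0.00241), -2.65 without Oct4 replicate 2, and -1.13 without Oct4 replicate 1, where it no longer passed (limma adjusted p = 0.072).

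OCA2 (chr15:27754875-28099358, minus), the melanosome anion channel gene, was in effect seen in 1 library. GFP replicate 1 had 22 reads of it, OSK replicate 1 had 3, GFP replicate 2 and Klf4 replicate 2 had 1 each, and the other 7 libraries had none. These 2 highest libraries are those with the broad low background, and its part in the OCA2 reads was not tested.

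From highest to lowest level the lines stood in similar order for 6 of the 7 tested targets, and MLANA was the exception. TYR, TYRP1, PMEL and GPR143 ran GFP, Klf4, OSK, Oct4, Sox2. TRPM1 ran GFP, Klf4, Oct4, OSK, Sox2, as MITF did, and SLC45A2 ran Klf4, GFP, OSK, Oct4, Sox2. MLANA ran Sox2, Klf4, Oct4, GFP, OSK, with no pair of neighbours separated by the test (limma adjusted p from 0.373 to 0.918). Oct4 stood above Sox2 for 7 of the 8 tested genes, MLANA being the exception (limma, adjusted p under 0.05; 18.0% of all genes were higher in Oct4). All 7 were also lower in Oct4 than in Klf4 (20.0% of genes lower) and lower in Sox2 than in Klf4 (20.7% lower). Not every pair of neighbours was separated by the test. TYR in OSK and Oct4 differed by a log2 value of 0.98 (SE 0.40, limma adjusted p = 0.0631), PMEL in the same pair by 0.41 (SE 0.22, limma adjusted p = 0.149), TRPM1 in Oct4 and OSK by 0.37 (SE 0.50, limma adjusted p = 0.595) and GPR143 in Klf4 and OSK by 0.36 (SE 0.15, limma adjusted p = 0.093). Between Oct4 and Sox2, 2 calls rested on single libraries: TYR was 1.58 higher in Oct4 (limma adjusted p = 0.00578), against 1.06 without Oct4 replicate 2 (limma adjusted p = 0.111) or without Sox2 replicate 1 (1.06, limma adjusted p = 0.1), and SLC45A2 1.75 higher (limma adjusted p = 0.00846), against 0.99 without Oct4 replicate 2 (limma adjusted p = 0.161) and 1.51 without Sox2 replicate 1 (limma adjusted p = 0.0682). Between Oct4 and Klf4, TRPM1 was -2.04 (limma adjusted p = 0.00331) and no longer passed without Oct4 replicate 1 (-1.22, limma adjusted p = 0.0824) or Klf4 replicate 1 (-1.40, limma adjusted p = 0.073).

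With the 3 factors together, 7 of the 8 pigmentation genes stood above the Sox2 line and 5 below the Klf4 line. OSK was higher than Sox2 for 7 of 8 genes (20.0% of all genes were higher; limma, adjusted p under 0.05), with MITF up by 1.11 on the log2 scale (SE 0.08, limma adjusted p = 2.32e-08), TYRP1 by 2.59 (SE 0.21, limma adjusted p = 6.03e-08) and PMEL by 2.57 (SE 0.22, limma adjusted p = 1.03e-07). Against Oct4, 3 genes were higher in OSK (18.4% of all genes were), and none was lower. TYRP1 was higher by 1.57 (SE 0.21, limma adjusted p = 1.58e-05), a call held under every alternative run. SLC45A2 was higher by 1.47 (SE 0.47, limma adjusted p = 0.0195) and GPR143 by 0.46 (SE 0.15, limma adjusted p = 0.0196). Without Oct4 replicate 1 these were 0.71 (limma adjusted p = 0.28) and 0.50 (limma adjusted p = 0.056), and without OSK replicate 1 they were 1.18 (limma adjusted p = 0.151) and 0.41 (limma adjusted p = 0.116). GPR143 also missed the threshold without Oct4 replicate 2 (limma adjusted p = 0.106) or OSK replicate 2 (limma adjusted p = 0.0502). The TYR difference of 0.98 passed without Oct4 replicate 2 (1.5, limma adjusted p = 0.0207) or OSK replicate 2 (1.35, limma adjusted p = 0.0474).

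Against Klf4, OSK was lower for MITF (-0.55, limma adjusted p = 0.000127), TYR (-1.80, limma adjusted p = 0.00366), TYRP1 (-0.96, limma adjusted p = 0.00319), PMEL (-0.65, limma adjusted p = 0.0427) and TRPM1 (-2.42, limma adjusted p = 0.00205), 5 of 8 genes, where 11.9% of all genes were lower. SLC45A2 was -1.33 (limma adjusted p = 0.0558), and passed with edgeR (adjusted p = 0.0236). The Klf4 line had a high and a low replicate for the enzymes, and only the MITF call held without Klf4 replicate 1. Without that library TYR was -1.36 (limma adjusted p = 0.0758), TYRP1 -0.57 (limma adjusted p = 0.0745), PMEL -0.55 (limma adjusted p = 0.235) and TRPM1 -1.78 (limma adjusted p = 0.0524). Without OSK replicate 2, TYR was -1.44 (limma adjusted p = 0.0677), TYRP1 -0.77 (limma adjusted p = 0.0626) and PMEL -0.54 (limma adjusted p = 0.245), and PMEL was also lost with DESeq2 (adjusted p = 0.134) and in limma without Klf4 replicate 2 (limma adjusted p = 0.0798) or OSK replicate 1 (limma adjusted p = 0.0808).

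The OSK change was also compared with what the Oct4, Sox2 and Klf4 changes would give if they added up on the log2 scale. For TYR and TRPM1 the sum falls below a level of 0, which no library can reach, and for PMEL and SLC45A2 it gives 3.04 and 1.63 normalised counts, less than 3 reads. A measured OSK level above the sum is thus no finding for these 4 genes, and no size is given for them. Of the other 4 genes, 3 lay above the sum in OSK, where 15.6% of all genes did, and MLANA lay below it, where 20.3% did. The 3 genes above it fell in Oct4, Sox2 and Klf4 alike, so each of their sums lies below every measured library. Standing above such a sum shows only that the falls did not add up in full. The share over all genes is not a like comparison for them. MITF had a mean of 1661 normalised counts in OSK against 303.8 from the sum, 2.45 above it on the log2 scale (SE 0.15, limma adjusted p = 7.04e-09). TYRP1 had 816.0 against 8.37 (6.43 above, SE 0.38, limma adjusted p = 4.92e-09) and GPR143 had 653.3 against 44.6 (3.84 above, SE 0.27, limma adjusted p = 2.57e-08). MLANA was -2.88 (SE 0.96, limma adjusted p = 0.029), and this missed the threshold with edgeR (adjusted p = 0.0508), DESeq2 (adjusted p = 0.0819) and without GFP replicate 2 (-1.80, limma adjusted p = 0.103), among others. The levels of POU5F1 and SOX2 in OSK were lower than in the single lines, and their part in this difference was not tested.

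Whether the targets moved by the same amount as MITF was tested directly, by subtracting the log2 value of MITF in each library from that of every other gene and fitting the same model. In Oct4 and Sox2, 6 of the 7 targets fell further than MITF and MLANA was higher relative to it. Since MITF itself fell, most genes rise on this scale, and 1.71% of all genes in Oct4 and 1.12% in Sox2 were called lower relative to MITF, against 68.2% and 88.8% called higher. With so many genes called, adjustment raises p-values less here than in the first fit. The same MITF values are subtracted from every gene, so the results of the 7 targets are not independent. In Oct4 the log2 change relative to MITF was -2.6 for TYR (SE 0.34, limma adjusted p = 4.5e-07), -2.34 for TYRP1 (SE 0.18, limma adjusted p = 2.9e-10) and -2.22 for PMEL (SE 0.18, limma adjusted p = 5.22e-10). It was -0.48 for GPR143 (SE 0.15, limma adjusted p = 0.0062), -1.99 for TRPM1 (SE 0.39, limma adjusted p = 9.71e-05) and -1.04 for SLC45A2 (SE 0.41, limma adjusted p = 0.0275). The GPR143 call was lost without Oct4 replicate 2 (-0.36, limma adjusted p = 0.103). SLC45A2 was lost without Oct4 replicate 1 (-0.36, limma adjusted p = 0.52) or GFP replicate 3 (-0.84, limma adjusted p = 0.108). MLANA, at 1.40 (limma adjusted p = 0.0135), was lost without GFP replicate 2 (0.88, limma adjusted p = 0.0929), Oct4 replicate 1 (limma adjusted p = 0.0625) or Oct4 replicate 2 (limma adjusted p = 0.0736). TRPM1 was -1.24 when Oct4 replicate 1 was left out and -2.74 when replicate 2 was.

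In Sox2 the change relative to MITF was -3.08 for PMEL (SE 0.18, limma adjusted p = 2.07e-13), -2.89 for TYR (SE 0.34, limma adjusted p = 3.5e-08), -2.06 for TYRP1 (SE 0.18, limma adjusted p = 4.16e-10) and -0.73 for GPR143 (SE 0.15, limma adjusted p = 9.24e-05). SLC45A2 was at -1.5 (SE 0.41, limma adjusted p = 0.00173), a call lost with a pseudocount of 10 (-0.25, limma adjusted p = 0.434). TRPM1, at 3 reads per Sox2 library, was also called lower relative to MITF (limma adjusted p = 1.08e-11).

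In Klf4, TYR, TYRP1, TRPM1 and GPR143 were not separated from MITF by the test. Relative to MITF, TYR was -0.18 (SE 0.34, limma adjusted p = 0.682), TYRP1 -0.17 (SE 0.18, limma adjusted p = 0.475), TRPM1 -0.31 (SE 0.39, limma adjusted p = 0.536) and GPR143 -0.02 (SE 0.15, limma adjusted p = 0.92). PMEL was the exception, with -1.52 (SE 0.18, limma adjusted p = 4.8e-07), 1 of 7 targets, where 3.99% of genes were called lower. SLC45A2 was higher relative to MITF by 1.40 (SE 0.41, limma adjusted p = 0.006) and MLANA by 1.68 (SE 0.48, limma adjusted p = 0.00558), where 50.2% of genes were. Without Klf4 replicate 1 these were 1.00 (limma adjusted p = 0.142) and 1.34 (limma adjusted p = 0.0993), and TYRP1 was then called lower (-0.60, limma adjusted p = 0.0124). A test that misses its threshold does not show equal change, and the 2 Klf4 libraries differed in the ratio of TYR, TYRP1 and TRPM1 to MITF.

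In OSK 4 of 7 targets fell further than MITF, where 2.79% of genes did. Relative to MITF, TYR changed by -1.44 (SE 0.34, limma adjusted p = 0.000568), TYRP1 by -0.58 (SE 0.18, limma adjusted p = 0.00785), PMEL by -1.62 (SE 0.18, limma adjusted p = 4.25e-08) and TRPM1 by -2.18 (SE 0.39, limma adjusted p = 2.91e-05). GPR143 was 0.16 (SE 0.15, limma adjusted p = 0.329) and SLC45A2 0.62 (SE 0.41, limma adjusted p = 0.177), and neither differed detectably from MITF. MLANA was higher, as 70.2% of genes were, by 1.18 (limma adjusted p = 0.0338), a call lost without GFP replicate 2 (0.65, limma adjusted p = 0.209) or OSK replicate 1 or 2 (limma adjusted p = 0.114 and 0.0857). The TYRP1 call was lost without OSK replicate 2 (-0.33, limma adjusted p = 0.189). Without GFP replicate 1 and OSK replicate 1, TYR was -2.05 and TRPM1 -2.85.

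**Figure D2:**
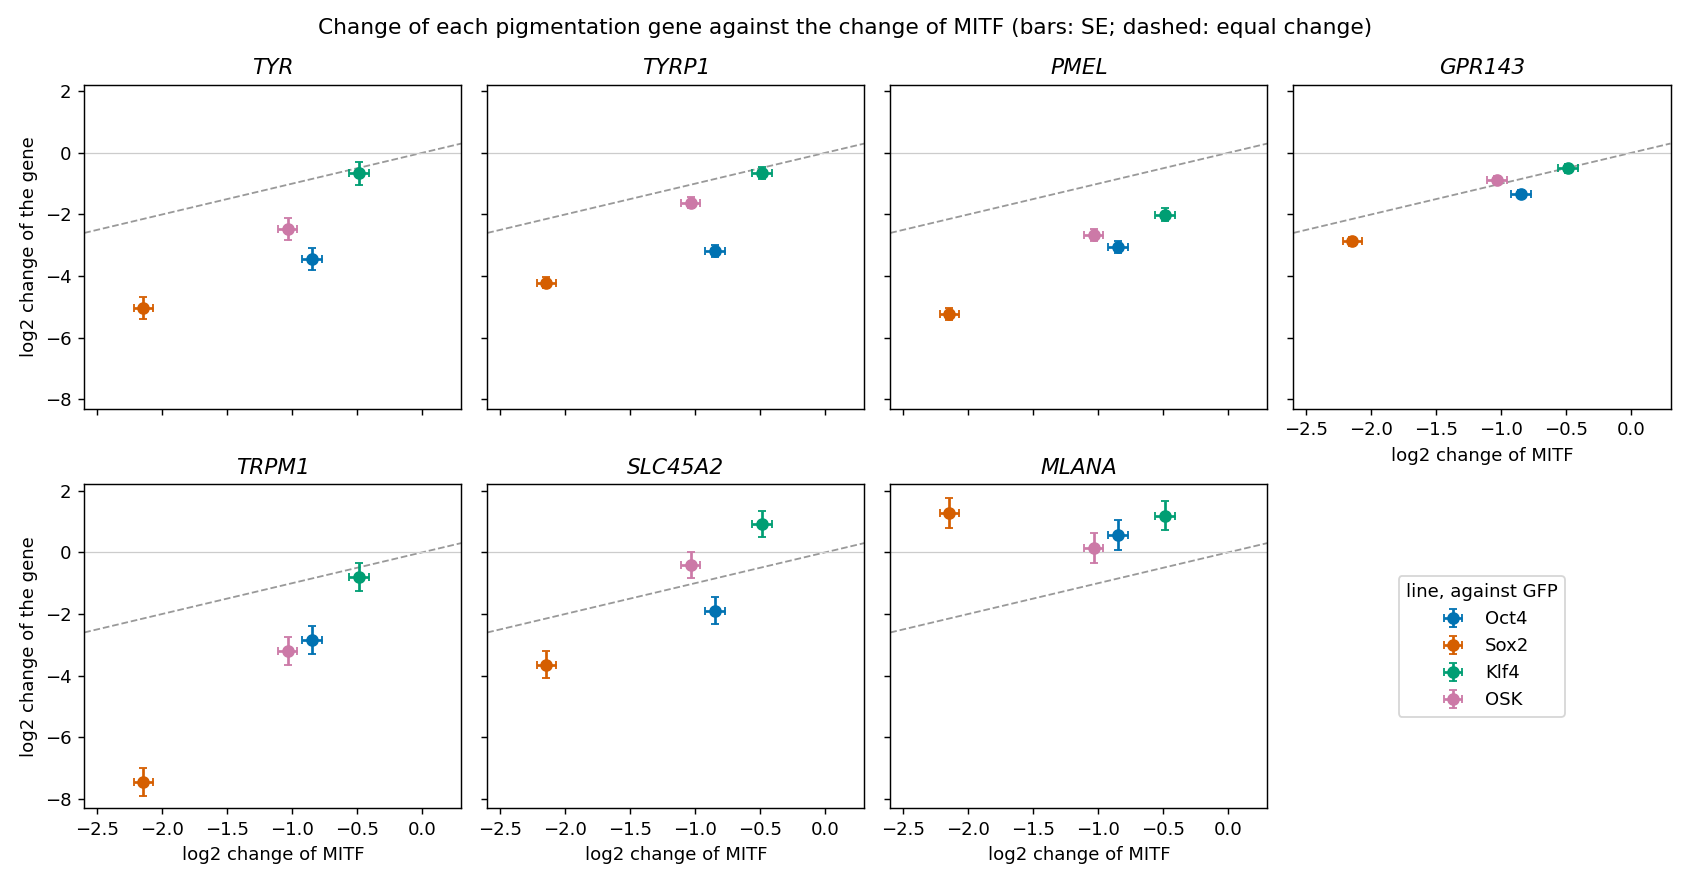
Log2 change against GFP of 7 pigmentation genes (vertical axis) plotted against the log2 change of MITF (horizontal axis) in the Oct4, Sox2, Klf4 and OSK lines; bars are standard errors and the dashed line marks equal change. TYR, TYRP1 and PMEL lie below the line in Oct4, Sox2 and OSK, and MLANA lies above it. GPR143 lies nearer to the line than TYR, TYRP1 and PMEL, and below it in Oct4 and Sox2.

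The Oct4 and OSK lines stood close to each other in MITF and apart in TYRP1. As a percentage of the MITF value in the same library, TYRP1 ran from 66.4% to 78.1% in GFP, 13.2% to 15.6% in Oct4, 15.1% to 19.9% in Sox2, 47.9% to 87.8% in Klf4 and 41.0% to 58.0% in OSK. The Oct4 and Sox2 ranges overlapped each other and lay below those of the other 3 lines, while MITF itself was more than 2-fold lower in Sox2 than in Oct4. TYR stood at 10.7% to 16.1% of MITF in GFP, 1.63% to 3.03% in Oct4, 1.14% to 2.63% in Sox2, 8.63% to 17.2% in Klf4 and 3.75% to 6.82% in OSK. PMEL stood at 125.5% to 168.4% in GFP, 29.3% to 35.0% in Oct4, 12.8% to 24.1% in Sox2, 47.1% to 57.8% in Klf4 and 43.2% to 54.6% in OSK. For GPR143 the ranges were 31.8% to 37.0% in GFP, 23.1% to 27.3% in Oct4, 17.3% to 25.7% in Sox2, 30.6% to 39.2% in Klf4 and 36.3% to 42.6% in OSK. That spread across lines was narrower than those of TYRP1, TYR and PMEL, and the Oct4 and Sox2 ranges lay below GFP.

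Tested directly, 5 of the 7 targets were higher relative to MITF in OSK than in Oct4 (25.6% of all genes were; this comparison was added after the values had been seen). TYRP1 was higher by 1.76 (SE 0.20, limma adjusted p = 3.4e-07) and GPR143 by 0.65 (SE 0.16, limma adjusted p = 0.00286). TYR was higher by 1.17 (SE 0.37, limma adjusted p = 0.0141), PMEL by 0.60 (SE 0.20, limma adjusted p = 0.0197) and SLC45A2 by 1.66 (SE 0.45, limma adjusted p = 0.00483). Without Oct4 replicate 1 or OSK replicate 1, TYR was 0.73 and 0.74 (limma adjusted p = 0.23 and 0.202), PMEL 0.47 and 0.43 (limma adjusted p = 0.177 and 0.182) and SLC45A2 0.98 and 1.30 (limma adjusted p = 0.128 and 0.0787). GPR143 was 0.53 without Oct4 replicate 2 (limma adjusted p = 0.0583). OSK against Sox2 gave 6 of 7 targets higher relative to MITF, where 3.46% of genes were, and MLANA lower, where 70.7% were. Against Klf4, TYR (-1.26, limma adjusted p = 0.00632) and TRPM1 (-1.87, limma adjusted p = 0.000859) were lower relative to MITF in OSK, where 3.64% of genes were. That TYR call was lost without Klf4 replicate 1 (-0.76, limma adjusted p = 0.153) or OSK replicate 2 (-0.83, limma adjusted p = 0.108), TRPM1 was -1.18 without Klf4 replicate 1 (limma adjusted p = 0.047) and -2.56 without Klf4 replicate 2, and TYRP1 passed without Klf4 replicate 2 (-0.85, limma adjusted p = 0.00168) or OSK replicate 1 (-0.66, limma adjusted p = 0.0245).

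**Figure D3:**
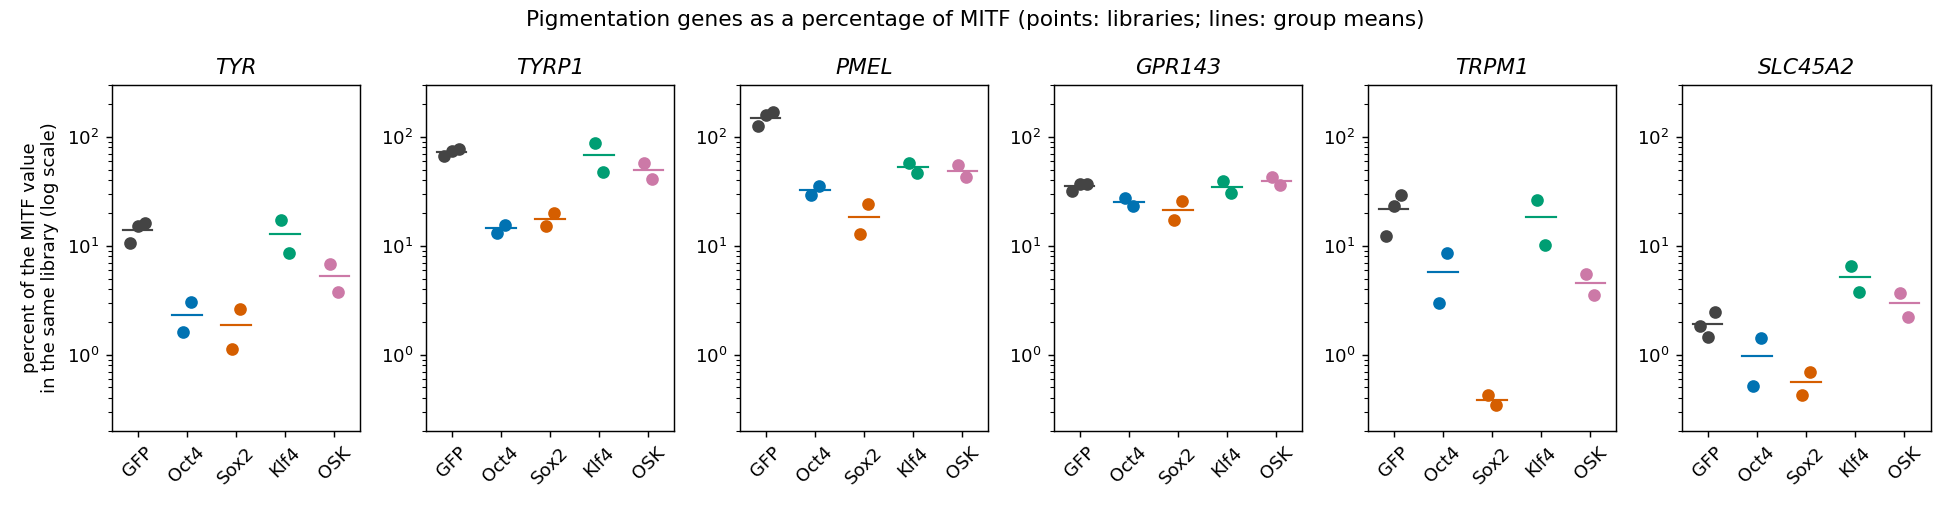
Level of 6 targets as a percentage of the MITF value in the same library (log axis), by line; points are libraries and lines are group means. TYRP1 lies between 13.2% and 19.9% of MITF in the Oct4 and Sox2 libraries and between 41.0% and 87.8% in the GFP, Klf4 and OSK libraries.

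Neither of the 2 tested relatives of MITF was called lower than in GFP in any line, where 16.0% to 20.0% of all genes were. With only 2 genes tested, this says little about the family. TFEB and TFE3, the family members known for lysosome genes, bind related E-boxes. TFEB had 113.2, 131.5 and 136.1 normalised counts in GFP, 102.2 and 111.0 in Oct4, 200.8 and 143.0 in Sox2, 969.3 and 809.0 in Klf4, and 315.5 and 300.3 in OSK. Every Sox2, Klf4 and OSK library lay above GFP, with Klf4 far above. TFEB was 2.80 higher in Klf4 on the log2 scale (SE 0.15, limma adjusted p = 1.13e-09), 1.28 higher in OSK (SE 0.15, limma adjusted p = 4.3e-06) and 0.42 higher in Sox2 (SE 0.15, limma adjusted p = 0.0334), and -0.25 in Oct4 (SE 0.15, limma adjusted p = 0.218). TFE3 was higher by 0.50 in OSK (SE 0.07, limma adjusted p = 2.46e-05) and 0.19 in Oct4 (SE 0.07, limma adjusted p = 0.0445), and -0.08 in Sox2 (limma adjusted p = 0.424) and 0.17 in Klf4 (limma adjusted p = 0.0771). TFEC never exceeded 6 reads and was not tested.

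Of 18 genes known to act on MITF or beside it, 13 could be tested, and they moved in both directions in each line. In Oct4 5 rose and 4 fell, in Sox2 3 rose and 5 fell, in Klf4 7 rose and 4 fell, and in OSK 5 rose and 3 fell, with medians of 0.20, -0.07, 0.22 and 0.07 on the log2 scale. The shares called were 69.2%, 61.5%, 84.6% and 61.5%, against 37.3%, 41.6%, 33.5% and 39.7% of all genes. Higher calls took 38.5%, 23.1%, 53.8% and 38.5% of these regulators, against 20.1%, 21.7%, 17.6% and 19.7% of all genes. Lower calls took 30.8%, 38.5%, 30.8% and 23.1% of them, against 17.2%, 19.9%, 16.0% and 20.0% of all genes. LHX2, an eye-field factor needed for MITF expression in the developing optic vesicle, fell in all 4 lines. It had 2552, 2702 and 2759.7 normalised counts in GFP, 995.1 and 889.3 in Oct4, 765.2 and 854.5 in Sox2, 1739.6 and 1998 in Klf4, and 1071 and 1097 in OSK. All factor libraries lay below GFP. The log2 change of LHX2 was -1.5 in Oct4 (SE 0.08, limma adjusted p = 8.43e-10), -1.72 in Sox2 (SE 0.08, limma adjusted p = 1.21e-10), -0.52 in Klf4 (SE 0.08, limma adjusted p = 0.000117) and -1.30 in OSK (SE 0.08, limma adjusted p = 3.98e-09).

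OTX2, the partner of MITF at pigment genes in the retinal pigment epithelium, fell, with a log2 change of -0.33 in Oct4 (SE 0.06, limma adjusted p = 0.000768) and -0.64 in Sox2 (SE 0.06, limma adjusted p = 8.28e-07). It rose by 0.30 in Klf4 (SE 0.06, limma adjusted p = 0.00182) and was 0.07 in OSK (SE 0.06, limma adjusted p = 0.459). Oct4 and Sox2 were also the lines with TYRP1 lowest relative to MITF, and the part of OTX2 in that was not tested. PAX6, an eye-field factor that is switched off as this epithelium matures, rose by 0.23 in Oct4 (limma adjusted p = 0.0123) and 0.17 in OSK (limma adjusted p = 0.0461), and was 0.12 in Sox2 (limma adjusted p = 0.141) and 0.02 in Klf4 (limma adjusted p = 0.858). SOX9, another activator of genes of this epithelium, fell, with log2 changes of -0.73 in Oct4 (limma adjusted p = 2.23e-06) and -1.22 in Sox2 (limma adjusted p = 5.24e-09), and rose by 1.32 in Klf4 (limma adjusted p = 4.65e-09) and 0.36 in OSK (limma adjusted p = 0.00172). SIX3 fell by 1.00 in Oct4 (limma adjusted p = 3.51e-09) and rose by 1.03 in OSK (limma adjusted p = 2.48e-09). It also stood above GFP (2011, 2045 and 2002 normalised counts) in Klf4 (3706 and 3645) and below it in Sox2 (1582 and 1547). CTNNB1, the gene of beta-catenin, rose by 1.24 in Sox2 (limma adjusted p = 1.96e-10), the line with the lowest MITF. Against 6789, 6706 and 6828 normalised counts in GFP, it had 8409 and 8112 in Oct4, 5614 and 5841 in Klf4, and 6319 and 6475 in OSK.

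**Figure D4:**
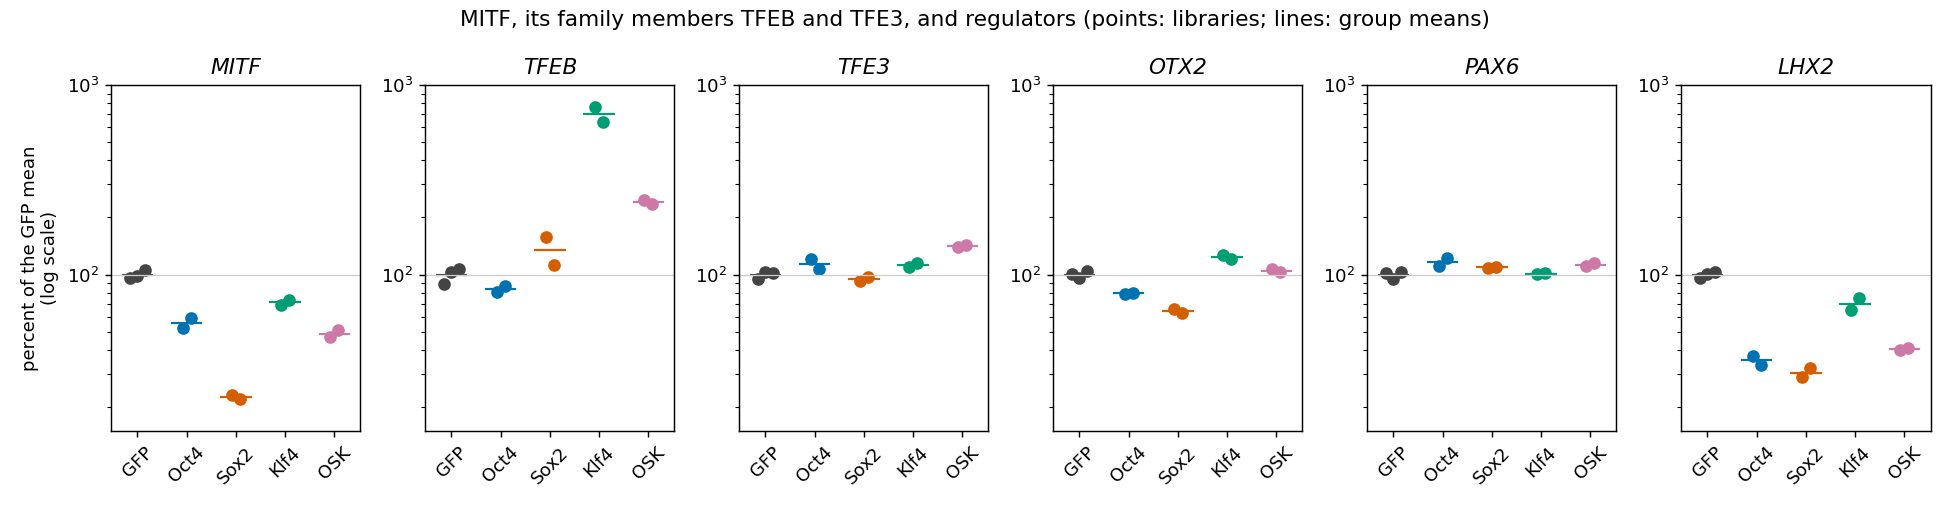
Level of MITF, its relatives TFEB and TFE3, and the regulators OTX2, PAX6 and LHX2 as a percentage of the GFP mean (log axis), by line; points are libraries, lines are group means and the grey line marks 100%. LHX2 and MITF lie below GFP in every factor library, whereas TFEB lies far above it in Klf4 and OSK.

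Other genes known as MITF targets moved in both directions. Of 19 listed, 18 were tested, and 8 fell and 5 rose in Oct4, 5 fell and 5 rose in Sox2, 5 fell and 4 rose in Klf4, and 8 fell and 3 rose in OSK, with medians of -0.05, -0.14, -0.19 and -0.32. The shares that fell were 44.4% in Oct4, 27.8% in Sox2, 27.8% in Klf4 and 44.4% in OSK, against 17.2%, 19.9%, 16.0% and 20.0% of all genes. Those that rose were 27.8%, 27.8%, 22.2% and 16.7%, against 20.1%, 21.7%, 17.6% and 19.7%. CTSK, a cathepsin under MITF in osteoclasts, fell in all 4 lines. It had 2687, 2900.4 and 2934 normalised counts in GFP, 1224 and 1322 in Oct4, 600.3 and 507.8 in Sox2, 1737 and 1703 in Klf4, and 1623 and 1497 in OSK. No factor library reached the GFP range. Its log2 change was -1.16 in Oct4 (limma adjusted p = 1.45e-08), -2.36 in Sox2 (limma adjusted p = 3.62e-12), -0.72 in Klf4 (limma adjusted p = 3.71e-06) and -0.86 in OSK (limma adjusted p = 3.53e-07). PPARGC1A, the mitochondrial coactivator, fell, with log2 changes of -5.12 in Sox2 (limma adjusted p = 6.79e-12) and -1.48 in Oct4 (limma adjusted p = 9.76e-06). Its levels were 371.4, 274.2 and 332.5 in GFP, 120.8 and 109.9 in Oct4 and 6.73 and 10.3 in Sox2. BEST1, a chloride channel of the retinal pigment epithelium, fell, with log2 changes of -1.23 in Oct4 (limma adjusted p = 0.000372) and -1.26 in OSK (limma adjusted p = 0.000261). In Sox2, where MITF was lowest, BEST1 overlapped GFP, with 78.5 and 103.6 normalised counts against 87.4, 103.2 and 136.1. Klf4, with 94.8 and 85.7, overlapped GFP too. BRCA1 went the other way, rising by 1.41 in Sox2 (limma adjusted p = 1.27e-06), 1.55 in Klf4 (limma adjusted p = 7.42e-07) and 1.67 in OSK (limma adjusted p = 2.28e-07), as did DIAPH1, which rose by 0.73 in Klf4 (limma adjusted p = 1.68e-07) to 0.94 in OSK (limma adjusted p = 5.81e-09).

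The general machinery that builds and moves melanosomes also changed in both directions. Of 40 listed genes 38 were tested, and 9 fell and 10 rose in Oct4, 11 fell and 12 rose in Sox2, 7 fell and 6 rose in Klf4, and 8 fell and 9 rose in OSK, with medians of -0.01, 0.16, 0.04 and 0.06. In Klf4 the share called, 34.2%, was near the 33.5% of all genes, and in Oct4, Sox2 and OSK it was 50%, 60.5% and 44.7%, against 37.3%, 41.6% and 39.7%. MYO7A, the myosin that holds melanosomes in this epithelium, had 5187, 3315 and 3184 normalised counts in GFP, 654.9 and 622.6 in Oct4, 138.0 and 119.9 in Sox2, 1711 and 2550.3 in Klf4, and 1292 and 1755 in OSK. It lay below GFP in all factor libraries, with a log2 change of -2.57 in Oct4 (limma adjusted p = 2.95e-08), -4.87 in Sox2 (limma adjusted p = 1.51e-11), -0.86 in Klf4 (limma adjusted p = 0.00231) and -1.33 in OSK (limma adjusted p = 3.52e-05). MYRIP, which links MYO7A to RAB27A on melanosomes, fell, with a log2 change of -1.76 in Oct4 (limma adjusted p = 4.08e-07), -1.27 in Sox2 (limma adjusted p = 1.07e-05) and -1.52 in OSK (limma adjusted p = 1.85e-06). MLPH, the melanocyte linker of RAB27A to myosin Va, fell, with a log2 change of -1.73 in Oct4 (limma adjusted p = 2.47e-05), -1.33 in Sox2 (limma adjusted p = 0.000251) and -1.96 in OSK (limma adjusted p = 5.81e-06). In Klf4 MYRIP was -0.21 (limma adjusted p = 0.357) and MLPH 0.11 (limma adjusted p = 0.764). SYTL2, another RAB27A partner, went the other way in Oct4, from 29.8, 38.4 and 39.9 normalised counts in GFP to 246.2 and 365.1, a rise of 3.03 (limma adjusted p = 2.68e-07). GPNMB, a relative of PMEL, fell, with log2 changes of -2.67 in Sox2 (limma adjusted p = 2.37e-12), -1.01 in Klf4 (limma adjusted p = 2.45e-07) and -1.27 in OSK (limma adjusted p = 1.22e-08), but rose by 0.35 in Oct4 (limma adjusted p = 0.00464), where the PMEL change was -3.07.

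Of 9 tested markers of the retinal pigment epithelium, 3 fell and 3 rose in Oct4, 2 fell and 1 rose in Sox2, 2 fell and 1 rose in Klf4, and 5 fell and 2 rose in OSK. The shares called were 66.7%, 33.3%, 33.3% and 77.8%, against 37.3%, 41.6%, 33.5% and 39.7% of all genes, so those in Sox2 and Klf4 were below or near the share of all genes. The summed level of all 12 listed markers was mostly KRT8 and KRT18, keratins of simple epithelia. These 2 summed to 20705 to 22300 in GFP, 14006 to 14099 in Oct4, 18985 to 19610.5 in Sox2, 17596 to 18941 in Klf4 and 9900 to 10573 in OSK. The other 10 markers summed to 1181 to 1511 in GFP, 531.8 to 717.6 in Oct4, 327.6 to 354.5 in Sox2, 1145 to 1802 in Klf4 and 672.0 to 757.7 in OSK. The summed keratins were thus lowest in OSK and the sum of the other 10 was lowest in Sox2. SERPINF1 made up much of the second sum in GFP, at 850.04, 1008 and 1243 normalised counts. Its mean was 157.2 in Oct4, 83.5 in Sox2, 844.2 in Klf4 and 332.2 in OSK. Much of the fall of the second sum in Sox2 was thus that of this 1 gene. A sum without SERPINF1 was not made. SERPINF1, the secreted factor PEDF, fell, with log2 changes of -2.71 in Oct4 (limma adjusted p = 1.12e-07), -3.62 in Sox2 (limma adjusted p = 2.94e-09) and -1.63 in OSK (limma adjusted p = 2.57e-05), and was -0.34 in Klf4 (limma adjusted p = 0.279). RDH5, a retinol dehydrogenase, rose by 2.60 in Klf4 (limma adjusted p = 3.25e-08), by 1.28 in Oct4 (limma adjusted p = 5.34e-05) and by 1.24 in OSK (limma adjusted p = 6.52e-05).

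The 9 melanocyte markers, 6 of them tested, summed to 227.6 to 349.6 in GFP, 193.4 to 197.4 in Oct4, 123.4 to 136.1 in Sox2, 394.2 to 562.1 in Klf4 and 222.2 to 239.6 in OSK. In Oct4 1 of the 6 tested fell and none rose, and the same counts held in Sox2. In Klf4 1 fell and 2 rose, and in OSK 1 fell and 1 rose. The shares called were 16.7%, 16.7%, 50% and 33.3% in Oct4, Sox2, Klf4 and OSK, against 37.3%, 41.6%, 33.5% and 39.7% of all genes. The median log2 change in Klf4 was -0.49. The 2 that rose in Klf4 were ERBB3, by 3.96 (limma adjusted p = 8.33e-05), and SOX10, the activator of MITF in melanocytes, by 2.32 (limma adjusted p = 0.0416). SOX10 had 19.9, 2.02 and 1.94 normalised counts in GFP and 30.1 and 25.1 in Klf4, at most 26 reads. ERBB3 had 72.5, 10.1 and 9.72 in GFP. The GFP replicate 1 values of both are the highest of their group, and the part of its low background in them was not tested.

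Finally, genes were ordered by how closely their log2 values followed MITF over the 11 libraries, which share 5 groups and are not independent conditions, so the correlation is a description. Closest to MITF were BCO2, a carotenoid-cleaving enzyme (Pearson r = 0.991), INPP4B (0.987), IGFN1 (0.987), DISC1FP1 (0.983) and FZD4 (0.983). Mean BCO2 was 1598 in GFP, 550.9 in Oct4, 124.6 in Sox2, 892.5 in Klf4 and 371.1 in OSK. Among the pigment genes TRPM1 stood at place 15 of 18827 (r = 0.974), PMEL at 51 (0.960), GPR143 at 59 (0.957), TYR at 243 (0.915), TYRP1 at 345 (0.894), SLC45A2 at 779 (0.820) and MLANA at 15393 (-0.48). The Sox2 libraries carried part of this. Over the 9 libraries without them, r with MITF was 0.942 for PMEL, 0.778 for TYRP1 and 0.449 for SLC45A2. Closest to TYRP1 were SERPINF1 (r = 0.994), CYB5RL (0.990), TRAPPC2L (0.988), PCDH7 (0.985) and TYR (0.983), while MITF stood at place 368.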

How the data were processed

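RNA was extracted with TRIzol and polyadenylated RNA was sequenced with an NEBNext Ultra II kit, per the labels' protocols. STAR 2.7.1a and featureCounts 1.6.2 and the builds GRCh38, hg38, GRCm38 and mm10 are named, per the submitters' processing notes, with no role given. The annotation and the use of strand are not given in the sources used here. The deposited values are a signal, normalised counts: from the values, the authors divided gene counts by 1 factor per library. Whole reads were recovered by dividing by the value of 1 read, which gave whole numbers for 100% of values up to 200 in each library. Fewer values up to 200 tell that value apart from 1 in GFP replicate 2 (13668) than in any other library (16023 or more).

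The 18828 genes that reached a value of 10 in 2 or more of the 11 libraries were fitted with limma 3.58.1 (R 4.3.3, trend) on log2(value + 1), with all 5 groups in 1 fit and Benjamini-Hochberg adjustment over all genes at 0.05. A second fit used each gene minus MITF per library. The 7 gene lists, MITF relatives (3 genes), regulators (18), other targets (19), melanosome machinery (40), melanocyte (9) and retinal pigment epithelium (12) markers and the 10 pigmentation genes, were written from general knowledge, and members and lists were chosen with earlier results of these data known. Named genes were the members, TFEB, TFE3, TFEC, OTX2, PAX6 and SOX10, at most 5 called genes with the largest changes per list and comparison with GFP, and the 5 genes most like MITF and TYRP1. Other genes named to check cell type or low reads were chosen after their values were seen. The alternatives were edgeR 4.0.16 and DESeq2 1.42.0 on recovered reads, TMM scaling, pseudocounts of 0.5 and 10, no filter or a mean CPM of 1 or more, a fit of the compared groups alone, a replicate block, and leaving out each library. OSK against each single line relative to MITF was added after values were seen. The procedure was tested on simulated data. Gene positions and exon lengths came from GENCODE (GRCh38) and promoters from RefSeq. A comparison of the TYR, TYRP1 and DCT proteins was not made here. The single-gene result of 1 melanocyte marker is not reported here, though the summed marker level includes it.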

Additional observations from a re-analysis of the deposited data

How the results depend on the processing

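The counts of changed pigmentation genes against GFP were 7 in Oct4, 8 in Sox2, 4 in Klf4 and 6 in OSK. Leaving out 1 library at a time gave 2 (without Klf4 replicate 2) to 6 (without GFP replicate 1) in Klf4, 1 to 3 for OSK against Oct4 (3 with all libraries, 1 without OSK replicate 1, and 1 without GFP replicate 1 and OSK replicate 1), and 1 to 4 for OSK against Klf4 (5 with all, 1 without Klf4 replicate 1). OSK against Klf4 over all genes gave 4049 calls, and 2580 without Klf4 replicate 1 and 2539 without OSK replicate 2. Relative to MITF, leaving out 1 library gave 3 to 5 for OSK against GFP (5 with all), 2 to 5 for OSK against Oct4 (5 with all, 3 without GFP replicate 1 and OSK replicate 1) and 1 to 3 for OSK against Klf4 (2 with all). With 1 library left in a line, it is assumed to vary like the other groups. Uncalled changes turned in direction as follows. MLANA in OSK against GFP was -0.033 with edgeR and TMM, -0.044 with edgeR and median-of-ratios factors, -0.044 with DESeq2, and -0.40 to 0.48 leaving out 1 library, and in Sox2 against Klf4 it ran from -0.20 to 0.38. TRPM1 in OSK against Oct4 ran from -1.20 to 0.45, and relative to MITF from -0.93 to 0.56. In Klf4 against GFP relative to MITF, leaving out 1 library gave -0.67 to 0.32 for TYR, -0.60 to 0.27 for TYRP1, -1.0 to 0.39 for TRPM1 and -0.20 to 0.16 for GPR143. GPR143 in OSK against GFP relative to MITF ran from -0.024 to 0.28. In OSK against Klf4 relative to MITF, TYRP1 ran from -0.85 to 0.026 and PMEL from -0.27 to 0.066. The cause was not tested. Relative to MITF, Sox2 against GFP had 16931 calls over all genes and 34170 without a filter, where more genes are tested. A pseudocount of 10 ended the call of SLC45A2 in Oct4 relative to MITF (-0.59, limma adjusted p = 0.0824) and let that in OSK pass (0.67, limma adjusted p = 0.0487). TYR in Oct4 against Sox2 missed the threshold with edgeR (adjusted p = 0.0664), and SLC45A2 in OSK against Klf4, uncalled in limma, passed with edgeR (-1.35, adjusted p = 0.0236) and DESeq2 (-1.35, adjusted p = 0.019). With the replicate number as a block the counts against GFP stayed at 7, 8, 4 and 6. In the Klf4 line TYRP1 was lost (-0.56, limma adjusted p = 0.0677) and MLANA passed (1.53, limma adjusted p = 0.0341). The block also ended the call of SLC45A2 in Oct4 relative to MITF (-0.84, limma adjusted p = 0.105) and gave GPR143 in Klf4 relative to MITF 0.016. Same-numbered libraries share no stated source, and their deviations correlated at -0.07 to 0.04, except 0.435 and 0.310 for GFP with OSK. Depth limits DCT, OCA2 and MLANA in all lines and TYR, TRPM1 and SLC45A2 in Sox2, which had 3 to 23 reads per library there.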
